A study of Mus musculus with 6 samples.

Results

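The Hox genes of the mouse are described here by cluster (Hoxa, Hoxb, Hoxc and Hoxd) and by paralog number. Members were all array probes whose RefSeq identifier belonged to a gene named Hoxa, Hoxb, Hoxc or Hoxd followed by a number from 1 to 13, whatever their level. Of 39 such genes in the reference table, 36 had a probe, among 18753 genes that the arrays name, and they were covered by 46 of 41174 probes. No probe was matched for Hoxc4, Hoxc6 or Hoxc11, which were not analysed here. The RNA came from cells of the 129/Ola mouse embryonic stem cell background that were at day 3 of differentiation in N2B27, a defined medium without serum that favours neural differentiation. They had been treated for 24 h with DMSO, the solvent, or with TSA (trichostatin A), which inhibits histone deacetylases and whose dose the labels do not give. Each treatment had 3 samples labelled as independent experiments, and total RNA of each was hybridised to 1 single-colour (Cy3) Agilent array. The samples of an experiment shared a slide, with DMSO at array position 3 and TSA at position 4, so array position and treatment cannot be told apart.

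Hox genes encode homeodomain transcription factors that give cells their position along the head-to-tail axis. They lie in 4 clusters in which genes with low paralog numbers sit at the 3′ end and are transcribed earlier and further forward in the embryo, and those with high numbers at the 5′ end are transcribed later and further back. In embryonic stem cells the clusters carry Polycomb marks and are largely silent. Retinoic acid and, at the tail end, Wnt, FGF and Cdx factors are known to open them in order. Forebrain and midbrain cells express no Hox genes, while hindbrain, spinal cord and trunk mesoderm do.

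Levels are given as log2 of the processed signal minus the 75th percentile of the same array, so that 0 is the level of a probe at that percentile. A level compares arrays for 1 probe and cannot be set against that of another probe. The 75th percentile of the processed signal lay between 311 and 926, with the dimmest array that of TSA in experiment 2, and 61.1% to 72.3% of 43379 spots were well above background. The lowest level called well above background was -4.86 on that dimmest array and -6.57 to -5.67 on the other 5. In these bulk samples, fewer cells that express a gene and less of its RNA per cell cannot be told apart.

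Detection followed the paralog number. A gene was tested if the scanner software had marked a probe as well above background on 3 or more of all 6 arrays, counted over both treatments together, and 23 of the 36 Hox genes with a probe did so, with 27 probes. Among all 18753 named genes, 14529 were tested. Of Hox genes with paralog numbers 1 to 3, 7 of 8 were tested, of those with 4 to 8, 11 of 13, and of those with 9 to 13, 5 of 15. All 4 genes of paralog number 9 were tested, whereas from number 10 on Hoxd13 was the only one of 11 that was. By cluster, 8 of 11 Hoxa genes, 9 of 10 Hoxb genes, 2 of 6 Hoxc genes and 4 of 9 Hoxd genes were tested.

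The clusters differed in where detection ended. In Hoxb every gene with a probe up to paralog 9 was tested, and in Hoxa the tested genes reached as far as Hoxa9, while Hoxa10, Hoxa11, Hoxa13 and Hoxb13 were well above background on 0 arrays. In Hoxc only Hoxc5 and Hoxc9 were tested. Hoxc8, Hoxc12 and Hoxc13 were on 0 arrays, and Hoxc10 was on 1 array of each treatment. In Hoxd the genes tested were Hoxd1, Hoxd4, Hoxd9 and Hoxd13. Hoxd10 was on 0 arrays, Hoxd3 on 1 DMSO array, Hoxd8 and Hoxd11 each on 1 TSA array, and Hoxd12 on 2 DMSO arrays and 0 TSA arrays. A gene that is not well above background has only an upper bound on these arrays, and it is not shown to be silent.

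**Figure D1:**
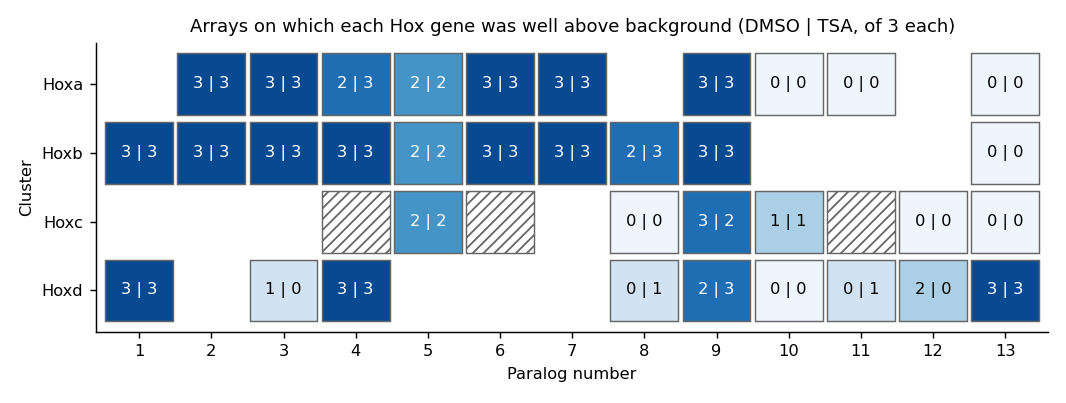
Each box is a Hox gene with its cluster (rows) and paralog number (columns); the figures inside are the number of DMSO and TSA arrays, of 3 each, on which any of its probes was well above background. Darker boxes are on more arrays, hatched boxes (Hoxc4, Hoxc6, Hoxc11) have no matched probe, and blank places hold no gene or one that is not reported here. Detection is dense up to paralog 9 in Hoxa and Hoxb and sparse beyond it, except for Hoxd13.

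Detection was similar in both treatments. Among all 14529 named genes tested, 13231 were well above background on all 6 arrays. Of the 23 tested Hox genes, 16 were. The other 7 were Hoxa4, Hoxb8 and Hoxd9, each on 2 DMSO and 3 TSA arrays, Hoxa5, Hoxb5 and Hoxc5, each on 2 arrays of both treatments, and Hoxc9, on 3 DMSO and 2 TSA arrays. For these 7 genes a level on an array without detection is that of a dim spot and is less certain.

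Most tested Hox genes had a higher mean level after TSA, but few differences stood clear of the spread between experiments. The mean was higher in TSA for 20 of the 23 genes and lower for 3 (Hoxa2, Hoxb2 and Hoxb8). Of all 14529 named genes tested, 58.1% had a higher mean in TSA. The median difference over the 23 Hox genes was 0.75 on the log2 scale, and it was 0.63, 0.98 and 0.83 within experiments 1, 2 and 3. It ranged from 0.32 to 1.37 when 1 array was left out (0.32 without DMSO 1 or TSA 2, 1.35 without DMSO 2 and 1.37 without TSA 1), and it was 0.28 with normexp background correction and quantile normalization. Over all tested genes the median was 0.08, with -0.03, 0.30 and 0.03 within the experiments. With limma and treatment as the only term, 0 Hox genes rose and 0 fell at an adjusted p under 0.05. That fit called 1.36% of all tested genes higher and 0.0551% lower (0.92% and 0.0355% of probes), and 4 Hox genes had an unadjusted p under 0.05, a rate that was 14.9% over all genes.

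The DMSO and TSA arrays of an experiment varied together, which the fit without a block counts as spread. With the experiment, which is also the slide, as a block, 2 Hox genes rose (Hoxa7 and Hoxd1) and 0 fell, where 3.19% of all tested genes were called higher and 0.145% lower. Both calls were lost when the block was combined with quantile normalization (adjusted p 0.0725 for Hoxa7 and 0.0747 for Hoxd1) or with no filter (0.0806 and 0.0812), settings in which 0 of all probes were called. Another 4 Hox genes, Hoxa4, Hoxa9, Hoxb6 and Hoxb7, had adjusted p-values of 0.0576 to 0.0797 with the block. The calls changed when 1 experiment was left out of the blocked fit. Without experiment 1, 4 Hox genes rose (Hoxa7, Hoxb1, Hoxb3 and Hoxd1) beside 4.56% of all tested genes called higher and 1.4% lower. Without experiment 2, 12 rose, among them Hoxa4, Hoxa7, Hoxa9, Hoxb1, Hoxb3, Hoxb4, Hoxb6, Hoxb7, Hoxb9, Hoxd1 and Hoxd13, where the shares of all genes were 10.9% and 2.53%, and without experiment 3 only Hoxd1 did, where they were 4.4% and 0.523%. In each case 0 Hox genes fell. Hoxd1 was called each time and Hoxa7 was not without experiment 3. Each of these fits used 4 arrays and left 1 residual degree of freedom. Their p-values therefore lean on the spread pooled over all probes and measure little of a gene's own. The calls are given as counts and are not read as a sign of stability.

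Of the 23 genes, 15 were higher in TSA within all 3 experiments, against 32.6% of all tested genes. Only Hoxa2 was lower within all 3, against 21.4% of all tested genes, and 7 were mixed. The 15 include Hoxa5 and the 7 include Hoxb5 and Hoxc5, whose arrays of experiment 1 were not well above background. The 15 also include Hoxa4 and Hoxd9, and the 7 Hoxb8 and Hoxc9, each well above background on 5 arrays. The members of 1 cluster share a regulatory neighbourhood and are not replicates of each other, so these counts carry no test.

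**Figure D2:**
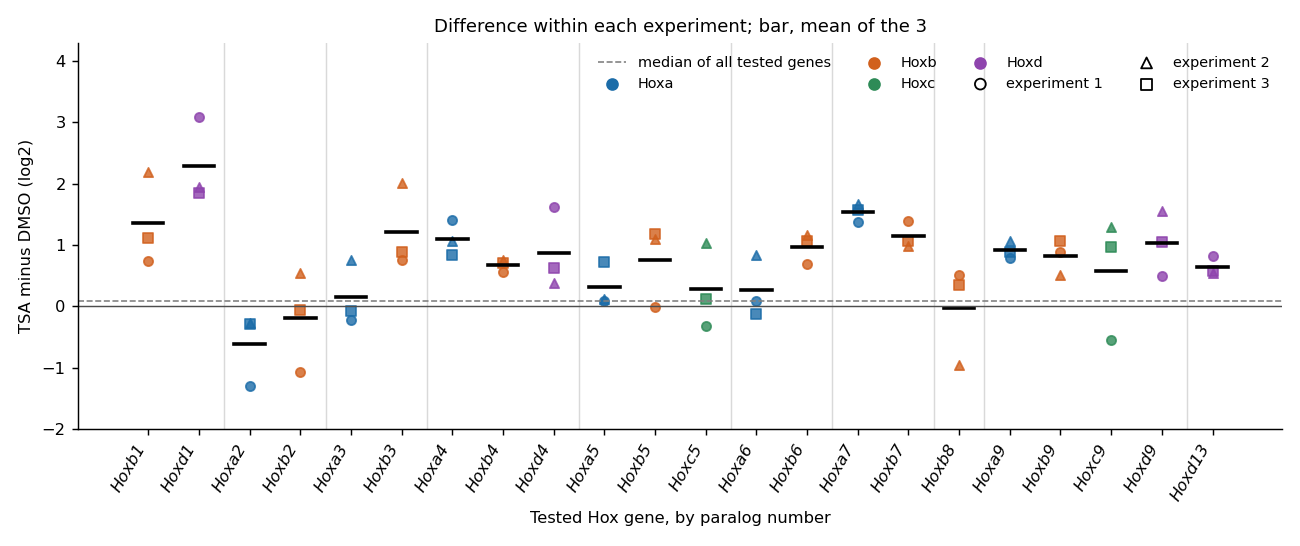
The y axis gives the TSA minus DMSO difference in log2 units within experiment 1 (circles), 2 (triangles) and 3 (squares) for the tested Hox genes reported here, ordered by paralog number and coloured by cluster; bars are means of the 3. The dashed line is the median of all tested genes, 0.08. The points of Hoxd1 lie between 1.85 and 3.09 and those of Hoxa7 between 1.37 and 1.68, while both genes of paralog 2 have bars below 0.

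Hoxd1, Hoxa7 and Hoxa2 span the range of the differences, and the 250 bases upstream of their RefSeq transcription starts (mouse build GRCm38.p6, read 5′ to 3′ on the strand of the gene) are shown here to set the 2 genes that rose with the block beside the 1 that was lower in every experiment. Capitals mark matches, on either strand, to the motifs searched. The GC box was searched as GGGCGG and the CCAAT box by the letters of its name. The TATA box was searched as TATAAA and the core bound by Cdx factors as TTTATG. A site of Hox with Pbx was searched as TGATNNAT, and the core of retinoid receptor sites as AGGTCA.
Hoxd1 (chr2:74762730-74762979, plus strand): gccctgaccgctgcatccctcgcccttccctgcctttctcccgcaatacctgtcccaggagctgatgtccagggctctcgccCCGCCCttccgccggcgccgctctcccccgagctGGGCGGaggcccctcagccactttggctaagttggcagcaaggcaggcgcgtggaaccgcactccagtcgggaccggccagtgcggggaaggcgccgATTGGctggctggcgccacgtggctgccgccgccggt
Hoxa7 (chr6:52218574-52218823, minus strand): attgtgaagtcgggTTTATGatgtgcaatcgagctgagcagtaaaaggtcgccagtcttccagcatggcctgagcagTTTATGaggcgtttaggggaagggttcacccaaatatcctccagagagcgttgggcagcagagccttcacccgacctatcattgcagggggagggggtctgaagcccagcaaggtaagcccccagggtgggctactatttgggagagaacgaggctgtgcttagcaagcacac
Hoxa2 (chr6:52164832-52165081, minus strand): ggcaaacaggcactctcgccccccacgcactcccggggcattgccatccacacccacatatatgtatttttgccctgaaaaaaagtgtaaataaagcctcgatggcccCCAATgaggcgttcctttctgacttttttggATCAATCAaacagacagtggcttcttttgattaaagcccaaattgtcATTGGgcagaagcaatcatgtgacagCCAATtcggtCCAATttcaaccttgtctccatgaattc
The Hoxd1 stretch was 71.6% G and C with 24 CpG dinucleotides and held GGGCGG at 2 places and CCAAT at 1. The Hoxa7 stretch was 54.8% G and C with 7 CpG dinucleotides and held TTTATG at 2 places. The Hoxa2 stretch was 46.4% G and C with 6 CpG dinucleotides and held CCAAT at 4 places and TGATNNAT at 1. The motifs are short and common, and a match describes the letters only. Of 32851 mouse promoters of this length, 32.7% held the GC box, 33.8% the CCAAT box, 12.4% the TATA box, 10.8% the Cdx core, 7.68% the Hox and Pbx site and 14.0% the retinoid receptor core. Of the 23 tested Hox genes, 13 had an entry, and 6, 8, 3, 3, 3 and 2 of these held the motifs in that order. The median share of G and C was 59.2% over these 13 and 52.4% over all promoters, with medians of 13 and 6 CpG dinucleotides.

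Paralog group 1 holds the genes that are transcribed first, and its members Hoxb1 and Hoxd1 were higher in TSA within all 3 experiments. Hoxd1 had levels of -5.34, -3.70 and -4.58 in DMSO experiments 1, 2 and 3 and of -2.24, -1.75 and -2.73 in TSA. All 3 TSA arrays lay above all 3 DMSO arrays, as they did for 1 other tested Hox gene, Hoxa7, and for 16.4% of all tested genes. The reverse order was found for 0 Hox genes and 8.29% of all tested genes. The difference was 2.30 ± 0.46 (log2, moderated SE, n = 3 each; 95% interval 1.19 to 3.41), a 4.91-fold higher level, but 0.91 on the log2 scale with normexp and quantile normalization. Its adjusted p with limma was 0.0879 without the block and 0.0425 with it (SE 0.30). Experiment 1, which had the lowest DMSO level, had the largest difference, 3.09, against 1.94 and 1.85 in experiments 2 and 3.

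Hoxb1, which acts in the hindbrain and is also transcribed in the primitive streak, had levels of -1.77, -0.05 and -1.39 in DMSO and -1.03, 2.14 and -0.27 in TSA. The TSA array of experiment 2 stood far above the other TSA arrays, and the groups overlapped. The difference was 1.35 ± 0.86, with an adjusted p of 0.609 and of 0.114 with the block.

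Paralog group 2 patterns the hindbrain and its neural crest, and its members had the lowest and the second lowest difference among the tested Hox genes. Hoxa2 had levels of -1.93, -0.55 and -1.60 in DMSO and -3.22, -0.81 and -1.88 in TSA. Each TSA array lay below its DMSO partner, with differences of -1.29, -0.27 and -0.28 in experiments 1, 2 and 3, and the groups overlapped. The mean difference was -0.61 ± 0.65 (95% interval -2.18 to 0.95), with an adjusted p of 0.724 and of 0.299 with the block.

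Hoxb2 had levels of -0.69, 1.01 and 0.01 in DMSO and -1.75, 1.55 and -0.05 in TSA, so it was lower in TSA in experiments 1 and 3 and higher in experiment 2. Its mean difference was -0.20 ± 0.85, with an adjusted p of 0.936. The median of both group 2 genes was -0.41, against differences of 1.35 and 2.30 for Hoxb1 and Hoxd1 of group 1. This contrast of neighbouring paralog groups was chosen after the values were seen, and it was not tested.

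Paralog group 3 acts in the posterior hindbrain and the pharyngeal arches. Hoxb3 had levels of -4.18, -1.99 and -3.42 in DMSO and -3.43, 0.02 and -2.53 in TSA, a difference of 1.21 ± 0.96 with an adjusted p of 0.662, and of 0.125 with the block. Its second tested probe, well above background on 2 arrays of each treatment, gave -0.05, so the size of the Hoxb3 difference depended on the probe. Hoxa3, known for its part in forming thymus and parathyroid, had a difference of 0.15 ± 0.39 by its brighter probe and 0.46 by the other, with adjusted p-values of 0.887 and 0.856. For Hoxa3 only the TSA array of experiment 2 stood out, at -1.17 against -2.50 to -1.93 on the other 5 arrays.

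Paralog groups 4 and 5 mark the border of hindbrain and spinal cord and the neck and upper trunk. All 3 group 4 genes were higher in TSA within every experiment. Hoxd4 had levels of -4.55, -1.65 and -2.99 in DMSO and -2.93, -1.27 and -2.37 in TSA, with differences of 1.62, 0.38 and 0.62 in experiments 1, 2 and 3. Hoxa4, well above background on 5 arrays, differed by 1.10 ± 0.68 (adjusted p 0.599, and 0.0676 with the block), Hoxd4 by 0.87 ± 0.77 (0.683, and 0.210) and Hoxb4 by 0.67 ± 0.61 (0.688, and 0.135). The group 4 differences were of like size, and the groups overlapped for each gene.

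The group 5 genes were near the limit of detection in experiment 1. Hoxb5 had levels of -6.54, -3.45 and -4.86 in DMSO and -6.55, -2.36 and -3.69 in TSA, and neither array of experiment 1 was well above background, so no difference is read there. In experiments 2 and 3 the TSA array was higher by 1.09 and 1.17. Hoxa5, known for its part in lung development, differed by 0.31 ± 0.89, Hoxb5 by 0.75 ± 1.20 and Hoxc5 by 0.28 ± 0.60, with adjusted p-values of 0.811 to 0.898.

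Paralog groups 6, 7 and 8 act in the trunk. Hoxa7 had levels of -2.82, -1.45 and -2.20 in DMSO and -1.45, 0.22 and -0.62 in TSA. All 3 TSA arrays lay above all 3 DMSO arrays, but only just, since TSA of experiment 1 and DMSO of experiment 2 both rounded to -1.45. Within the experiments the differences were close to each other, at 1.37, 1.68 and 1.58. The mean difference was 1.54 ± 0.52 (95% interval 0.31 to 2.77), a 2.91-fold higher level, with an adjusted p of 0.285 without the block and 0.0375 with it (SE 0.18).

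Hoxb7, the paralog of Hoxa7 in the Hoxb cluster, had levels of -4.03, -2.47 and -3.42 in DMSO and -2.63, -1.49 and -2.35 in TSA. Each TSA array lay above its partner, by 0.98 to 1.40, and the groups overlapped because DMSO of experiment 2 lay above TSA of experiment 1. The difference was 1.15 ± 0.48, with an adjusted p of 0.411, and of 0.0576 with the block. The 2 group 7 genes thus had similar differences in clusters on different chromosomes, with a median of 1.34.

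Their neighbours in groups 6 and 8 were less even. Hoxb6 differed by 0.97 ± 0.82 (adjusted p 0.673, and 0.0797 with the block) and was higher in TSA within every experiment, while Hoxa6 differed by 0.27 ± 0.41 (0.807, and 0.564) and was slightly lower in experiment 3. Hoxb8 had levels of -6.04, -1.84 and -4.63 in DMSO and -5.53, -2.81 and -4.28 in TSA. It was higher in TSA in experiments 1 and 3, with differences of 0.52 and 0.35, and lower in experiment 2, at -0.97. Its mean difference was -0.03 ± 1.15 with an adjusted p of 0.992. Its DMSO level in experiment 1 is that of a spot not well above background, and its DMSO arrays spread more widely than any of its differences between treatments.

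Paralog group 9 gives cells a lower thoracic and lumbar position, and 3 of its 4 genes were higher in TSA within every experiment. Hoxb9 had levels of -2.62, -0.16 and -1.61 in DMSO and -1.74, 0.35 and -0.55 in TSA. Its difference was 0.82 ± 0.75 by this probe and 0.95 ± 0.82 by a second probe that was also on all 6 arrays. The adjusted p-values were 0.689 and 0.677, and 0.118 and 0.0674 with the block. Hoxa9 differed by 0.92 ± 0.75 (0.668, and 0.0763 with the block), Hoxd9 by 1.03 ± 0.57 (0.560, and 0.123) and Hoxc9 by 0.57 ± 1.03 (0.835, and 0.447). Hoxc9 was lower in TSA in experiment 1, where the TSA array was not well above background, and higher in experiments 2 and 3.

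Hoxd13, which acts in the digits, the genital bud and the hindgut, was the only gene above paralog 9 that was tested, with Hoxd10 to Hoxd12 below the filter between it and Hoxd9. It had levels of -4.03, -3.66 and -4.27 in DMSO and -3.21, -3.12 and -3.70 in TSA, and the groups met only where TSA of experiment 3 lay just below DMSO of experiment 2. The difference was 0.64 ± 0.26 (adjusted p 0.408, and 0.153 with the block). Its second probe, well above background on 1 DMSO and 2 TSA arrays, gave 0.98 ± 0.22 with adjusted p-values of 0.122 and 0.0664. The spread of Hoxd13 between experiments was small beside that of the other posterior genes.

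By cluster, the median difference was 0.48 over the 8 tested Hoxa genes, 0.82 over 9 Hoxb genes, 0.42 over 2 Hoxc genes and 0.95 over 4 Hoxd genes. By position it was 0.65 over 7 genes of paralogs 1 to 3, 0.75 over 11 of paralogs 4 to 8 and 0.82 over 5 of paralogs 9 to 13. Within each of the 3 position sets the genes ranged more widely than these medians did, from -0.61 to 2.30, -0.03 to 1.54 and 0.57 to 1.03. The medians carry no test, and no trend along the clusters is read from them.

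The tested Hox genes also differed between experiments. In experiment 2 all 23 tested Hox genes had their highest level of the 3 experiments, both among the DMSO arrays and among the TSA arrays. Of all tested genes, 34.6% had that pattern. Experiment 1 was the lowest in both treatments for 19 of the 23, and the order of experiments 2, 3 and 1 from high to low held in both treatments for 19, against 9.64% of all tested genes. The median Hox gene in experiment 2 stood 1.39 above the mean of the other experiments in DMSO and 1.61 above it in TSA, where the median over all tested genes was 0.06 and 0.37. Within 1 treatment and experiment the genes share an array, and the pattern was noticed in the values, so it is a description with no test.

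**Figure D3:**
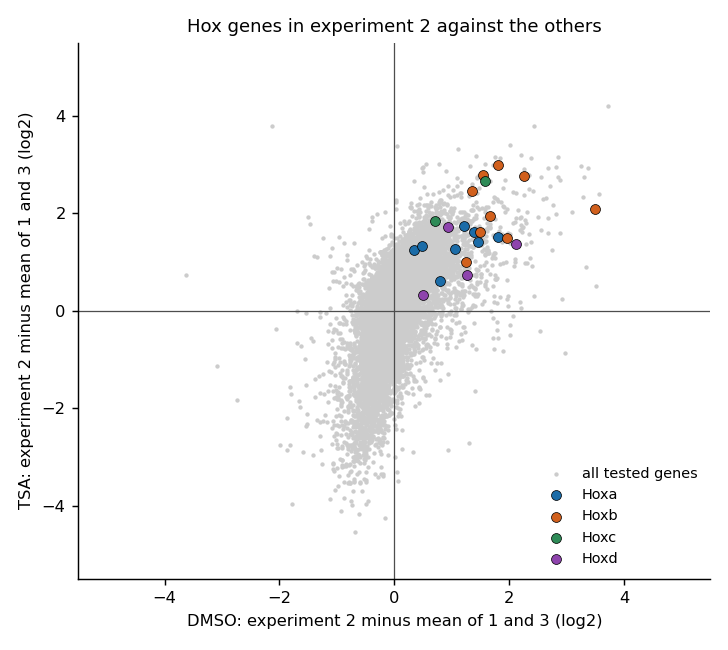
Each point is a gene; the x axis gives its level in experiment 2 minus the mean of experiments 1 and 3 in DMSO, and the y axis the same in TSA, both in log2 units. Grey points are all tested genes and coloured points the 23 tested Hox genes by cluster. Every Hox gene lies above 0 on both axes, with a median of 1.39 in DMSO and 1.61 in TSA.

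The excess in experiment 2 was found along all tested positions. Among genes well above background on all 6 arrays, it was 2.12 in DMSO and 1.38 in TSA for Hoxd4, 1.81 and 3.00 for Hoxb3, and 1.53 and 2.79 for Hoxb1. It was 0.34 and 1.25 for Hoxa3, and 0.49 and 0.33 for Hoxd13. The median excess was 1.27, 1.48 and 1.39 in DMSO for paralogs 1 to 3, 4 to 8 and 9 to 13, and 1.74, 1.50 and 1.62 in TSA. The TSA array of experiment 2 was also the dimmest array, and the part of signal strength in these values was not tested. The DMSO array of the same experiment had a 75th percentile of 654, which lay within the range of the others.

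**Figure D4:**
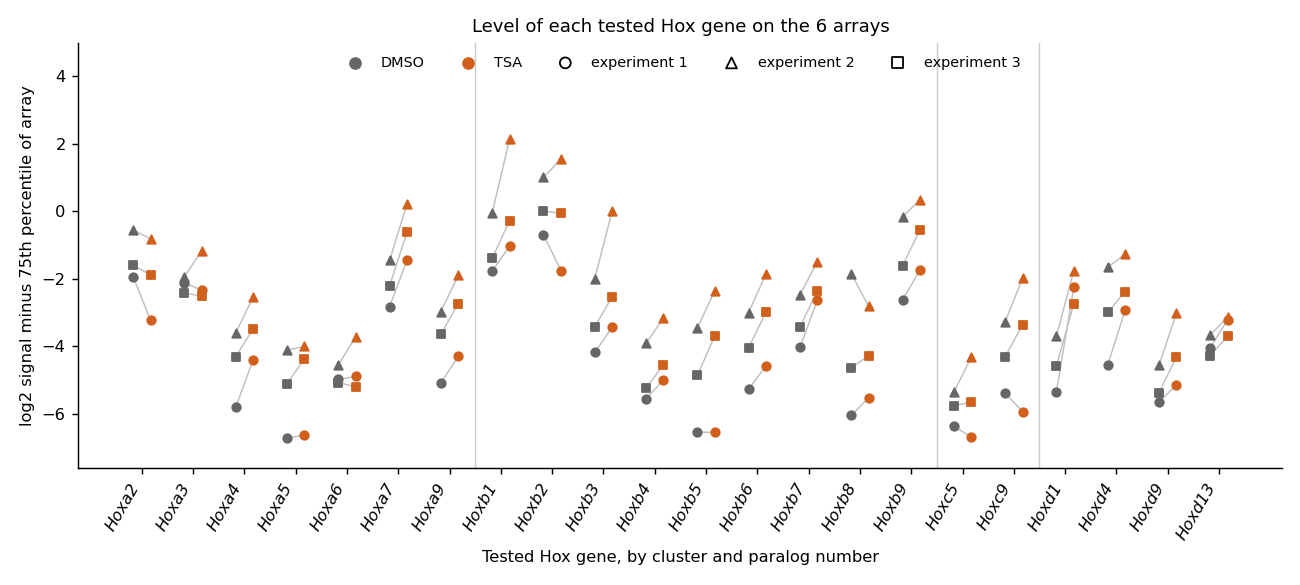
The y axis gives the level (log2 signal minus the 75th percentile of the array) of the tested Hox genes reported here, ordered along the clusters, with DMSO in grey and TSA in orange; lines join the arrays of 1 experiment. Triangles, experiment 2, are the highest of their treatment for every gene drawn, and the lines run upward for all genes drawn of paralogs 1, 4 and 7 and for 3 of 4 of paralog 9.

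Genes known to act upstream of the Hox clusters were set beside them. Of a list of 17 caudal, Wnt, FGF and other streak and tail bud genes, T and Tbx6 among them, 15 were tested. Their median difference was 1.39, and 12 were higher in TSA within every experiment. The differences ran from -0.07 to 3.03, and the genes named below all lay at or above the median. Higher levels within every experiment were found for 32.6% of all tested genes. With treatment alone 0 of the 15 were called, and with the block 6 rose, where 3.19% of all tested genes did. Among them were the caudal homeodomain factors that bind Hox clusters, Cdx1 (1.61 ± 0.92, adjusted p 0.0407 with the block), Cdx2 (1.46 ± 1.00, 0.0392) and Cdx4. The others were Wnt3a (2.75 ± 1.17, 0.0311), Tbx6 (3.03 ± 1.21, 0.0363) and Sp5 (1.68 ± 0.69, 0.0348), which act in the primitive streak and tail bud. Cdx4 (2.39 ± 0.68) was well above background on 1 DMSO and 3 TSA arrays. It met the filter through its TSA arrays, its DMSO level is that of dim spots, and its call is not read. Fgf8 and T (brachyury) differed by 1.39 ± 0.78 and 1.57 ± 0.71, with adjusted p-values of 0.0759 and 0.0666 with the block.

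Cdx2 had levels of -1.01, 1.93 and -0.53 in DMSO and 0.37, 3.31 and 1.10 in TSA. As in the Hox genes, experiment 2 was the highest in both treatments, which held for 13 of the 15 genes of this list. The median gene of the list stood 1.44 above the other experiments in DMSO and 1.88 in TSA.

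Genes of the retinoic acid pathway had differences in both directions, and none passed the threshold. Of 19 listed, 18 were tested, 0 were called in either fit, and the median difference was 0.03. Aldh1a2, which makes retinoic acid in the trunk mesoderm, had levels of -3.26, 0.64 and -1.14 in DMSO and -0.55, 2.57 and 0.19 in TSA, a difference of 1.99 ± 1.15 (adjusted p 0.579, and 0.0511 with the block). Rarb, a retinoic acid receptor whose own gene responds to retinoic acid, differed by -1.19 ± 0.56 (0.492, and 0.0590), and Cyp26a1, which breaks retinoic acid down and also responds to it, by 0.60 ± 1.16 (0.846, and 0.233). Aldh1a3 differed by 1.48 ± 0.24 (0.0527, and 0.0586) but was well above background on only 1 DMSO and 2 TSA arrays.

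Of 6 listed regulators of Hox genes in the hindbrain, 5 were tested and 0 were called, with a median of 0.03. Egr2, which activates Hoxa2 and Hoxb2 in the hindbrain, had levels of -1.38, 0.31 and -1.19 in DMSO and -1.09, -0.05 and -1.03 in TSA, a difference of 0.03 ± 0.52 (adjusted p 0.985). Gbx2, an anterior hindbrain gene, differed by 0.34 ± 0.30 (0.682).

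The partners with which Hox proteins bind DNA were described from a list of Meis, Pbx and Pknox genes. All 9 were tested and 0 were called, with a median difference of -0.21. The mean was higher in TSA for 3 and lower for 6. Within all experiments 2 were higher and 3 lower, against 32.6% and 21.4% of all tested genes. Meis2 was lower in TSA within each experiment, at 2.79, 3.14 and 3.37 in DMSO and 1.36, 2.18 and 2.82 in TSA, a difference of -0.98 ± 0.40 (adjusted p 0.397, and 0.114 with the block). Pbx3 differed by -0.43 ± 0.26 (0.598, and 0.330) and was likewise lower within each experiment.

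Of 24 listed Polycomb, trithorax and H3K27 demethylase genes, which keep Hox clusters silent or active, 23 were tested and 0 were called. Their median was -0.24, with 1 gene higher and 8 lower in TSA within all experiments, against 32.6% and 21.4% of all tested genes. Ezh2, the Polycomb methyltransferase, differed by -0.31 ± 0.23 (adjusted p 0.642), and Bmi1, a Polycomb subunit, by -0.98 ± 0.52 (0.546), with most of it in experiment 2, at -2.28.

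Homeobox genes related to the Hox genes and genes beside the clusters were set next to them. Of 13 related homeobox genes, 10 were tested with a median of 1.28. With treatment alone 0 were called, and with the block Cdx1, Cdx2 and Evx1 rose, where 3.19% of all tested genes were called higher. Cdx4 and Pdx1 met the filter through their TSA arrays, so their calls are not read. Pdx1 is given as a bound. Evx1, a primitive streak gene beyond the Hoxa13 end of its cluster, had levels of -4.85, -3.17 and -5.88 in DMSO and -2.59, 0.20 and -3.40 in TSA, a difference of 2.70 ± 1.06 (adjusted p 0.384, and 0.0329 with the block). Evx2, at the matching end of the Hoxd cluster, differed by 0.26 ± 0.45 (0.825). Pdx1, a pancreas and duodenum gene, was well above background on 0 DMSO and 3 TSA arrays and was at least 2.81-fold higher in TSA. The lower side of that bound averages, over the DMSO arrays, the probe's own level, raised to the array's floor where it lay below. The floor is the lowest level at which any probe was called well above background. Some probes lay above it without being called so, and the bound is approximate.

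Of 21 listed genes at the flanks of the clusters, 17 were tested, with a median of -0.01. With treatment alone 0 were called, and with the block Evx1 and Skap1 rose, where 3.19% of all tested genes were called higher. Skap1, an adaptor gene beside Hoxb1, differed by 2.37 ± 0.69 (adjusted p 0.219, and 0.0439 with the block), while its paralog Skap2, at the 3′ end of the Hoxa cluster, differed by -0.02 ± 0.19 (0.978). Cbx5 and Hnrnpa1, beside the Hoxc cluster, differed by -0.97 ± 0.36 (0.346) and -0.12 ± 0.22 (0.847).

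Of 14 listed genes of the forebrain and midbrain, regions without Hox expression, 8 were tested with a median of 0.41, 0 were called with treatment alone and 1 rose with the block, Lhx5 (1.49 ± 0.52, adjusted p 0.314, and 0.0425 with the block). The fit with the block called 3.19% of all tested genes higher. Otx2, En2 and Lhx2 differed by 0.07 ± 0.21, -0.01 ± 0.34 and 0.16 ± 0.22.

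**Figure D5:**
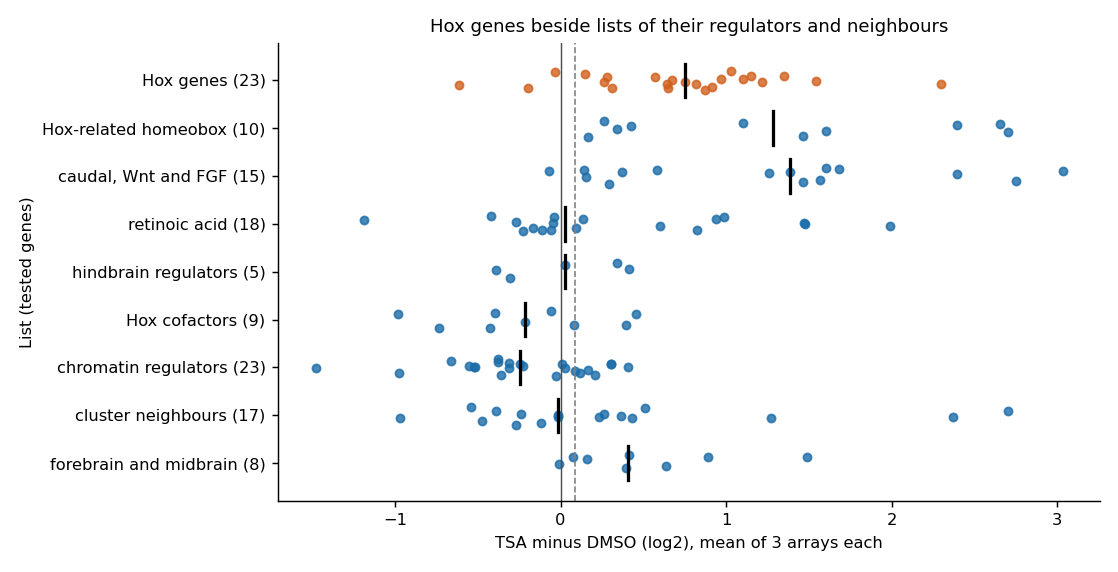
Each point is a tested gene at its TSA minus DMSO difference in log2 units, and each row a list with its number of tested genes; black bars are list medians and the dashed line is the median of all tested genes. The medians of the Hox genes (0.75), the related homeobox genes (1.28) and the caudal, Wnt and FGF genes (1.39) lie to the right of the dashed line, and those of the cofactors (-0.21) and the chromatin regulators (-0.24) to its left; Cdx and Evx1 points appear in more than 1 row.

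Markers of the cell types the cultures could hold were summed on each array on the linear scale, so a sum is weighted toward its brightest probes. The 10 mesendoderm and mesoderm markers had a summed level, in multiples of the 75th percentile, of 5.43 to 16.5 in DMSO and 16.8 to 54.6 in TSA, with experiment 2 the highest in both. Their median difference was 1.81, all were above background on at least 1 array, and 6 rose with the block, where 3.19% of all tested genes did. T, Tbx6 and Evx1 are among these markers and were also in the lists above, so the counts are not separate. T and Tbx6, at log2 levels of 4.05 and 4.43 on the TSA array of experiment 2, weigh heavily in the sum of that array. The summed level of 9 neural progenitor markers was 11.2 to 13.9 in DMSO and 9.24 to 10.2 in TSA, with a median difference of -0.43 and 0 called. That of 10 pluripotency markers was 65.9 to 115 and 71.6 to 179, with a median difference of 0.37 and 0 called. The 10 endoderm markers summed to 2.28 to 22.4 in DMSO and 2.43 to 20.2 in TSA, again highest in experiment 2. Their median difference was 0.21, with 0 called and Ttr on 0 arrays. The 10 fibroblast and feeder markers summed to 5.87 to 8.30 and 11.4 to 15.8, with a median difference of 0.88 and Lum on 0 arrays. With the block 1 rose, Col1a2 (1.77 ± 0.33, adjusted p 0.0474 with the block), beside the same 3.19% of all tested genes. The part of any of these cell types in the Hox differences was not tested.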

How the data were processed

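The 6 arrays were read with Agilent Feature Extraction (version 10.7, per the submitters' processing notes), and per the file headers the deposited intensity values include a processed signal, background-subtracted within the array and not scaled between arrays. The authors' deposited series table holds log2 values whose normalization is not given in the sources used here; its column medians are 6.31 to 6.34, its columns correlate with log2 of the processed signal at 0.982 to 0.992, and it served as an alternative.

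Control spots and outlier-flagged spots (57 to 84 per array) were left out, 0 spots were saturated, each array's processed signal was put on the log2 scale and set to 0 at its 75th percentile, and repeated spots of a probe were averaged. Among 41174 probes, 27484 were named through RefSeq identifiers in the reference table (GRCm38.p6) and 13690 were not; a gene was read from its tested probe with the highest mean. The 28158 probes well above background on at least 3 of 6 arrays were fitted by limma (3.58.1, R 4.3.3; lmFit, eBayes, two-sided tests). The p-values were adjusted over all of them (Benjamini-Hochberg) at a threshold of 0.05. Errors after ± are moderated standard errors of the fit without the block, which counts the shared level of an experiment as spread. The fit without the block was run on simulated arrays drawn independently of each other, which does not cover the pairing of arrays within an experiment. The model held treatment alone. Replicate numbers are slide numbers, and deviations from the group means correlated at 0.484, 0.614 and 0.585 for arrays of the same slide and at -0.568 to 0.0916 for others, so the numbers are taken as pairs, and blocked values stand where they bear on a call. Spread here is that among samples labelled as separate experiments, and the number of arrays limits the precision.

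Members and gene lists were chosen with earlier results of these data known. The values of 2 genes are not reported here by name, though the counts and medians include them. The rule for names takes every other Hox gene with a probe above background and, from the 8 lists of related genes, the members past the threshold in either fit and up to 4 others with high levels; Rarb, Cyp26a1, Aldh1a2, Aldh1a3, Ezh2, Bmi1, Evx2, Skap2 and Cbx5 lie outside it and were chosen after their values were seen. Alternatives were normexp (offset 50) with quantile normalization, quantile normalization, median centring, the authors' table, no filter, a filter on all 6 arrays, the slide as a block, an intensity trend, outlier spots kept, and arrays or slides left out; combinations of the block with no filter, quantile normalization, median centring or a slide left out were chosen after seeing the data. Normexp used median spot signals. Python 3.11.15 with pandas 2.3.3, numpy 2.4.6 and matplotlib 3.10.9 was used for reading and drawing.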

Additional observations from a re-analysis of the deposited data

How the results depend on the processing

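The mean was higher in TSA for 20 of the 23 tested Hox genes under all 5 ways of scaling, and experiment 2 was the highest in both treatments for 23 of 23 with the 75th percentile or median centring and for 22 with quantile normalization or the authors' table. The median difference of 0.75 became 0.28 with normexp and quantile normalization and ranged from 0.32 to 1.37 with 1 array left out; it was 0.32 without DMSO replicate 1, 1.35 without DMSO replicate 2, 1.37 without TSA replicate 1 and 0.32 without TSA replicate 2. Of Hox probes, 0 were called without the block. With the replicate block 2 were called, also after median centring, and 0 with the block and no filter or quantile normalization, where Hoxa7 had adjusted p-values of 0.0806 and 0.0725 and Hoxd1 of 0.0812 and 0.0747. With the block, 4 probes were called without slide 1, 14 without slide 2 and 1 without slide 3. Without slide 3 Hoxa7 had an adjusted p of 0.0523, and Hoxd1 was called each time. These fits of 4 arrays left 1 residual degree of freedom, so their calls are not read as a sign of stability. With normexp, Hoxd1 differed by 0.91 and Hoxa7 by 1.05.

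The count over all tested probes, 269, was 658 with the block, 833 with the block and median centring, 0 with the block and no filter or quantile normalization, 1895, 3058 and 1359 with the block and slide 1, 2 or 3 left out, 149 with the authors' table, 144 with median centring, 58 with no filter, 140 with normexp, 156 with quantile normalization, 0 to 629 with 1 array left out and 0 without any 1 slide.

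Signs turned only where arrays were left out and only for genes that were not called. Without slide 1 Hoxb2 was 0.24; without slide 2 Hoxa3 was -0.15, Hoxa6 -0.02, Hoxb8 0.43 and Hoxc5 -0.10, with or without the block. With 1 array left out, Hoxa2 ran from -1.19 to 0.011, Hoxa3 from -0.27 to 0.40, Hoxa5 from -0.39 to 1.13, Hoxa6 from -0.18 to 0.56, Hoxb2 from -1.01 to 0.64, Hoxb5 from -0.17 to 1.93, Hoxb8 from -0.97 to 1.13, Hoxc5 from -0.34 to 0.85 and Hoxc9 from -0.32 to 1.65, while the other 14 genes kept their sign in all settings. The cause was not tested. Hoxa5, Hoxb5 and Hoxc5 were well above background on 4 arrays and Hoxa4, Hoxb8, Hoxc9 and Hoxd9 on 5, which limits their values.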
